A study of Homo sapiens with 4 samples.

Results

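The genes described here encode the ESCRT machinery, its partner ALIX and the syndecan-syntenin pathway, which bud vesicles into endosomes and load them with cargo. They were taken from a list of 31 gene symbols, and all 31 were among the 43317 gene names carried by the arrays. HCT116 colorectal cancer cells and A549 lung cancer cells, both established lines, were transfected by means of Dharmafect1 with the microRNA miR-891b or with the control RNA NC1. Total RNA, 100 ng per sample, was labelled with Cy3 and hybridised to 1-colour Agilent arrays, and each pairing of line and RNA has 1 array, 4 in all. By its title, the series concerns PSAT1 and vesicle release in several cancers. The time between transfection and harvest is not given in the sources used here.

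ESCRT complexes act in sequence on the endosome membrane. ESCRT-0 gathers ubiquitin-tagged cargo, ESCRT-I and ESCRT-II deform the membrane, ESCRT-III filaments cut the neck of the bud, and the ATPase VPS4 takes the filaments apart. ALIX, the product of PDCD6IP, links syntenin and the syndecans to ESCRT-III, and this route is known for making small vesicles that cells later release as exosomes. Several of these proteins also cut the bridge between daughter cells at the end of division.

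A microRNA pairs with transcripts mainly through its seed, so the sequence that was added to the cells is shown first. The mature miR-891b of RefSeq (GRCh38.p14, chrX:146001100-146001121, minus strand) is printed with its seed, bases 2 to 8, in capitals.
hsa-miR-891b: uGCAACUUaccugagucauuga
The DNA letters that pair with this seed are AAGTTGC. They were present in 229 of 58201 gene probes (0.393%), in 0 of the 43 probes of the ESCRT, ALIX and syndecan-syntenin genes and in 0 of 44 probes of 28 further genes of the pathway. A probe covers 60 bases of a transcript, so these counts say nothing of sites elsewhere in the transcripts, which were not analysed here.

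Signals are given as log2 of the processed signal minus the 75th percentile of the same array, and a change is miR-891b minus NC1 on that scale. Each group has 1 array, so a change within a line cannot be set against a spread between cultures and carries no p-value; precision is limited by this number. Changes were therefore called by size, at 2-fold (a log2 change of 1) or at 1.5-fold. The error model of the scanner software gave a standard error (SE) of 0.20 for nearly every change of these genes, whereas repeated spots of 1 probe varied with a median SD of 0.061 in HCT116 and 0.071 in A549. Both describe measurement error only. Between 44.7% and 50.3% of gene probes were well above background on each array, and no gene spot was saturated. The HCT116 arrays shared a slide and the A549 arrays shared another, so line and slide cannot be told apart. Of 10 genes that mark either line, each gave the higher signal on the NC1 array of its own line. They were chosen with earlier results of these data known, so this is not an independent check of the lines. AKR1B10, a marker of A549, went from -2.29 with NC1 to 2.18 with miR-891b in HCT116, against 9.88 with NC1 in A549. Of 7 fibroblast markers, which were checked because the growth conditions also name fibroblast cultures, 3 (COL1A2, COL3A1 and DCN) were not well above background on any array, LUM and THY1 were in A549 only, and COL1A1 and PDGFRB were on all 4.

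Of the 31 genes, 30 were well above background on all 4 arrays. The exception was SDC2, the syndecan typical of mesenchymal cells, whose signals passed the background mark on none of the arrays, so that it has no measured change.

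In HCT116, 0 of the 30 measured genes were 2-fold lower and 0 were 2-fold higher with miR-891b, against 0.843% and 1.16% of 19104 measured genes. At 1.5-fold, 1 gene was lower, VPS37B, against 5.65% of all genes, and 0 were higher, against 3.91%. The changes ran from -0.65 to 0.42 with a median of -0.060, and the median over all genes was -0.041. In A549, VPS37B and PDCD6IP were 2-fold lower (2 of 30, 6.67%) against 5.57% of 21336 genes, and 0 were 2-fold higher against 4.0%. With median scaling 1 gene was 2-fold higher, CHMP7 at 1.00, whose spot is described with ESCRT-III. At 1.5-fold, 5 genes were lower (16.7%), against 15.3% of all genes, and 2 were higher (6.67%), against 11.1%. These shares lay near the background of that comparison or below it. Processing moved the 1.5-fold split in A549, which was 5 lower and 2 higher. It was 4 and 3 with median scaling, 3 and 3 after quantile normalization, and 2 and 2 with normexp and quantile normalization. Normexp is not only a scaling, since it redoes the background correction and adds an offset of 50 to the signals. VPS37B and PDCD6IP were lower and CHMP1B was higher by 1.5-fold under each of these settings. The A549 changes ran from -1.72 to 0.94 with a median of -0.16, against -0.059 over all genes. That median was -0.0042 after quantile normalization. A list of 10 genes chosen as marks of dividing cells, such as MKI67 and CDK1, lay between -1.93 and -1.58 in A549, with a median of -1.78. Its median in HCT116 was 0.054. The list was chosen with earlier results of these data known, so its A549 values are not an independent result. The CDK1 spot lay in an area of stray signal, described with VPS37B below, on the A549 miR-891b array (29.4%). So did those of MKI67 (11.4%), CCNA2 (19.8%) and CDC20 (18.9%) on the HCT116 miR-891b array. The part of these 10 genes in the A549 changes was not tested.

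**Figure D1:**
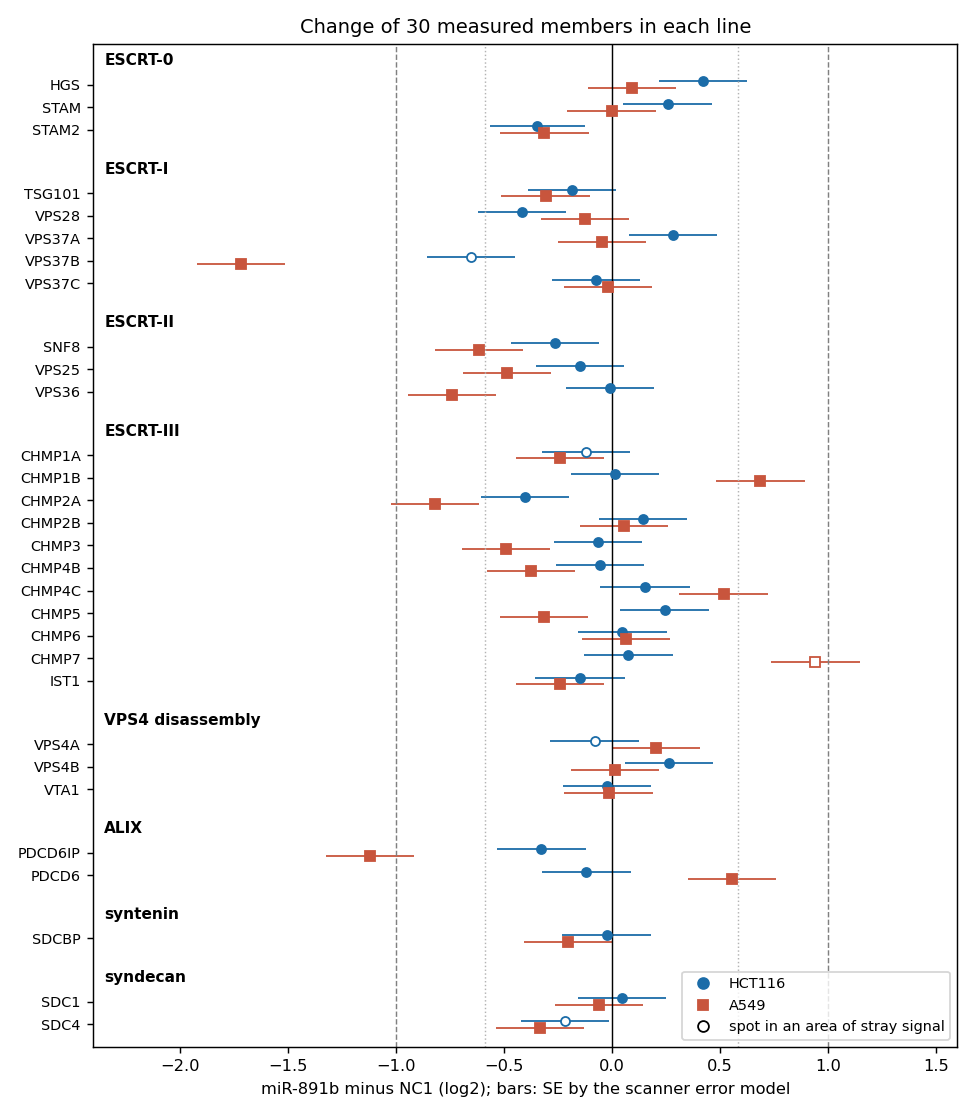
Change of each of the 30 measured genes, miR-891b minus NC1 on the log2 scale, by role in the pathway, with HCT116 as circles and A549 as squares. Bars are the SE of the scanner error model, dashed lines mark 2-fold and dotted lines 1.5-fold, and open symbols mark spots in areas of stray signal on the miR-891b array. VPS37B at -1.72 and PDCD6IP at -1.12 in A549 are the points past 2-fold.

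ESCRT-0 holds HGS, which binds ubiquitin-tagged receptors, and its partners STAM and STAM2. None was past 1.5-fold in either line by its brightest probe. HGS gave 7.35 with NC1 and 7.78 with miR-891b in HCT116, and 6.14 and 6.24 in A549. Its change of 0.42 in HCT116 was the highest of the 30 genes there by brightest probes, and its A549 change was 0.095. STAM2 was lower in both lines, by values that differed little: from -0.76 to -1.10 in HCT116 (change -0.34) and from 0.17 to -0.14 in A549 (change -0.31). STAM changed by 0.26 in HCT116 and by 0.00028 in A549. Its second probe gave 0.77 in HCT116, past 1.5-fold, and -0.25 in A549. With the mean over probes STAM was at 0.51 in HCT116.

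ESCRT-I binds ubiquitin through TSG101 and is held together by VPS28 and a VPS37 protein, of which VPS37A, VPS37B and VPS37C are alternative forms. VPS37B had the largest changes of the 30 genes in both lines. Its signal was 3.93 with NC1 and 3.28 with miR-891b in HCT116. In A549 it was 2.38 with NC1 and 0.66 with miR-891b. The NC1 array was thus the higher of the pair in each line, and both A549 arrays were below both HCT116 arrays. The change was -0.65 ± 0.20 (SE by the error model) in HCT116 and -1.72 ± 0.20 in A549, which is 1.57-fold and 3.29-fold lower. After quantile normalization the HCT116 change was -0.58, and with normexp -0.52, just short of 1.5-fold. It was the only gene of the 30 past 1.5-fold in both lines before these, where 1.38% of 18061 genes were lower by that much in both. In A549, 1.02% of genes were as low or lower. VPS37B has 1 probe (chr12:123350080-123350139, hg19). Around it on the HCT116 miR-891b array, 18.8% of the spots with dim signals elsewhere passed the background mark, which is called stray signal here, although the local background of its own spot was 16 there and 15 to 17 on the other arrays. On the A549 arrays that share was 1.90% with NC1 and 3.73% with miR-891b. VPS37A gave 2.29 and 2.57 in HCT116 (change 0.28) and 2.49 and 2.45 in A549 (change -0.045). VPS37C changed by -0.073 and -0.019. TSG101, which also binds ALIX, changed by -0.19 in HCT116 and -0.31 in A549. VPS28 changed by -0.41 in HCT116 and by -0.12 in A549, where quantile normalization gave 0.17.

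The promoter of VPS37B is shown because this gene moved most. It is the stretch of 250 bases before its start in RefSeq (GRCh38.p14, chr12:122896125-122896374, minus strand), with cAMP response elements (CRE, TGACGTCA) and an E-box (CACGTG) in capitals.
VPS37B: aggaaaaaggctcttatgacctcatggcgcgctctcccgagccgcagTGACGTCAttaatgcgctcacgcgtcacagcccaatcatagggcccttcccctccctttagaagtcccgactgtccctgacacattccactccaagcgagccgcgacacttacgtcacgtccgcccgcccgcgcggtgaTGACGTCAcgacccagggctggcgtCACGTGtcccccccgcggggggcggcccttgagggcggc
The elements were chosen after the changes had been seen, and both read the same on either strand. Counted from the start of the gene, the CRE begins at positions -203 and -64 and the E-box at -39. Over all 35116 RefSeq promoters, 1.65% hold a CRE and 6.34% an E-box in these 250 bases. These promoters include those of genes not measured here. Of genes measured in A549, 342 held a CRE and 10776 did not, and 1188 held an E-box and 9930 did not. Both shares are higher than over all promoters. Of the 22 pathway genes with a promoter in that table, CHMP1B also holds a CRE, and CHMP1B was higher in A549, by 0.69. Other motifs searched on both strands in the 22 promoters were the GC box (GGGCGG, 15 genes, against 42.6% of all promoters), CCAAT (5 genes, against 32%) and the cell cycle element TTTGAA (1 gene, CHMP2B, against 13.3%). Of genes measured in A549, 7781 held a GC box and 3337 did not, and 4527 held CCAAT and 6591 did not. These 2 shares are also higher than over all promoters, so 15 of 22 is not an excess of GC boxes over measured genes.

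ESCRT-II joins ESCRT-I to ESCRT-III and consists of SNF8, VPS25 and VPS36. All 3 were below 0 in A549, with a median of -0.62, and in HCT116, with a median of -0.15, where VPS36 was at 0.038 after quantile normalization, 0.035 with normexp and 0.028 with median scaling. VPS36, which binds ubiquitin and membrane lipid (probe at chr13:52986841-52986900, hg19), gave 2.09 and 2.08 in HCT116 (change -0.0074) and 2.14 and 1.40 in A549 (change -0.74). The A549 miR-891b array stood below the other 3, which lay between 2.08 and 2.14. SNF8, the subunit at the centre of the complex (probe at chr17:47007859-47007918, hg19), gave 6.06 and 5.79 in HCT116 (change -0.26), then 5.99 and 5.37 in A549 (change -0.62). VPS25, the subunit that contacts ESCRT-III, gave 4.21 and 4.06 in HCT116 (change -0.15) and 4.69 and 4.20 in A549 (change -0.49). The A549 change of SNF8 was -0.55 with median scaling, -0.41 after quantile normalization and -0.28 with normexp background correction and quantile normalization, each short of 1.5-fold. That of VPS36 was -0.54 with normexp, also short of 1.5-fold.

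ESCRT-III is built from CHMP proteins and IST1. Of its 11 genes, 5 were below 0 in HCT116 and 6 in A549, where CHMP2A was 1.5-fold lower and CHMP1B and CHMP7 were 1.5-fold higher. CHMP2A, which recruits VPS4 (probe at chr19:59063274-59063333, hg19), gave 6.27 with NC1 and 5.87 with miR-891b in HCT116. In A549 it gave 6.63 and 5.81. Its changes of -0.40 and -0.82 were the lowest of the complex in each line, and the NC1 array was above the miR-891b array in both. The A549 change was -0.55 after quantile normalization and -0.50 with normexp, short of 1.5-fold. CHMP1B, a late-acting subunit that binds severing enzymes (probe at chr18:11854358-11854417, hg19), gave 1.29 and 1.30 in HCT116 and 0.84 and 1.53 in A549. It therefore changed by 0.014 in HCT116 and by 0.69 in A549, where the miR-891b array was the highest of the 4.

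CHMP7, which also works at the nuclear envelope, gave 0.84 and 0.91 in HCT116 and 0.19 and 1.13 in A549. The A549 change of 0.94 rests on a spot with a raised local background: it was 76 on the A549 miR-891b array and 16 or 17 on the other arrays, while the other 30 genes had 14 to 19 on all arrays. Of nearby spots that were dim elsewhere, 25.1% passed the background mark on that array. With normexp correction, which uses the local background, the change was -0.0025.

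The other ESCRT-III genes stayed short of 1.5-fold by their brightest probes. In A549, CHMP4C, which delays the final cut in dividing cells, was higher by 0.52, while CHMP3 (-0.49), CHMP4B (-0.37), CHMP5 (-0.31), CHMP1A (-0.24) and IST1 (-0.24) were lower. CHMP6 changed by 0.065 and CHMP2B by 0.057. In HCT116 the brightest probes of these 8 genes lay between -0.15 and 0.24, the ends being IST1 and CHMP5. One further CHMP3 probe gave -0.50 in HCT116 and -0.60 in A549, the latter past 1.5-fold, and another gave 0.046 and -0.29. The second CHMP1A probe gave -0.26 and -0.19. CHMP5 had opposite signs in the lines, with 0.24 in HCT116 and -0.31 in A549, and its second probe gave 0.036 and -0.39.

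The ATPases VPS4A and VPS4B and their activator VTA1 had changes between -0.080 and 0.26 in both lines. VTA1 gave 1.77 and 1.74 in HCT116 (change -0.021) and 1.29 and 1.28 in A549 (change -0.015). VPS4B gave 3.78 and 4.04 in HCT116 (change 0.26) and 3.15 and 3.17 in A549 (change 0.014). VPS4A changed by -0.080 and 0.21, and its spot on the HCT116 miR-891b array lay in an area of stray signal.

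PDCD6IP encodes ALIX, which binds syntenin, TSG101 and CHMP4 proteins, and PDCD6 encodes ALG-2, a calcium sensor that binds ALIX. The PDCD6IP probe with the highest signal (chr3:33910819-33910878, hg19) gave 1.55 with NC1 and 1.22 with miR-891b in HCT116. It gave 2.29 and 1.17 in A549. The A549 NC1 array was the highest of the 4 and the other 3 lay close together. The change was -0.33 ± 0.20 (SE by the error model) in HCT116 and -1.12 ± 0.20 in A549, which is 2.17-fold lower and as low as the lowest 4.14% of genes. The gene has 2 other probes, and they moved less. The probe at chr3:33894107-33894166 changed by 0.22 in HCT116 and -0.34 in A549. The probe at chr3:33868584-33868643, assigned to another transcript, changed by 0.0078 and -0.48. All 3 probes were thus lower in A549 and 1 was past 2-fold, with a mean of -0.65, whereas their signs differed in HCT116. PDCD6 went the other way in A549, from 6.03 to 6.58 (change 0.55), and from 6.50 to 6.38 in HCT116 (change -0.12). Its A549 change was past 1.5-fold under other settings, at 0.62 with median scaling, 0.88 after quantile normalization and 0.94 with normexp. A second measured PDCD6 probe gave 0.12 in A549.

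The 250 bases before the start of PDCD6IP (GRCh38.p14, chr3:33798380-33798629, plus strand) are printed beside the result for comparison with VPS37B, with the E-box and an ETS element (CCGGAAGT, looked for on both strands) in capitals.
PDCD6IP: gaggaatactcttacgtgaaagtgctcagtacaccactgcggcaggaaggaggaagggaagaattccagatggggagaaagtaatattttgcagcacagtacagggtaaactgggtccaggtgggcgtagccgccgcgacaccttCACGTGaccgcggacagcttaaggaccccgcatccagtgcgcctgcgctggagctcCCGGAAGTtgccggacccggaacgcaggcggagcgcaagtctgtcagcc
The E-box begins at position -105 and the ETS element at -49. An E-box was present in 3 of the 22 promoters, those of VPS37B, PDCD6IP and VPS36, with A549 changes of -1.72, -1.12 and -0.74. Over all genes measured in A549, the 1188 with this element had a median change of -0.027 and the 9930 without it -0.049. The ETS element was present in 7 of the 22 promoters, against 3.42% of all promoters. The A549 changes of these 7 genes ran from -1.12 (PDCD6IP) to 0.55 (PDCD6). Over all genes measured in A549, the 825 with an ETS element had a median change of -0.11 and the 10293 without it -0.042. The share with an ETS element is thus higher among measured genes than over all promoters. The elements were looked for with the changes known, so their relation to the changes was not tested. A match is a description of the letters and not a site of binding.

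**Figure D2:**
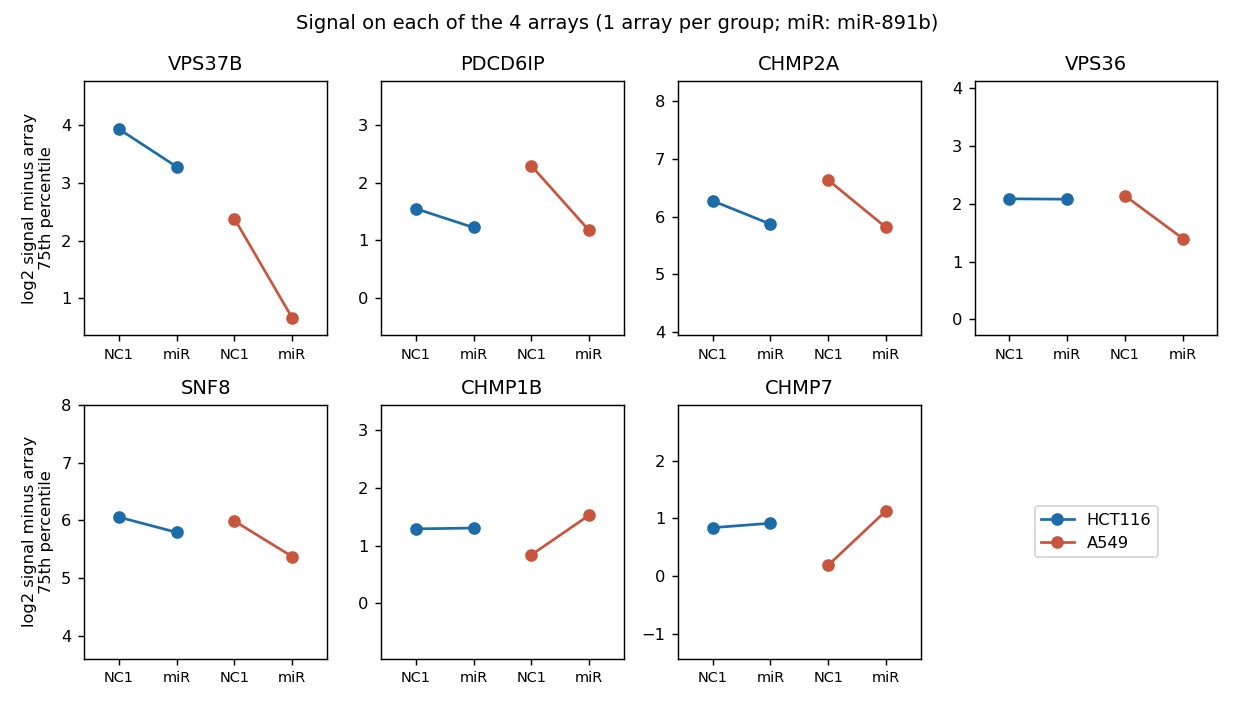
Signal of the 7 genes past 1.5-fold in either line on each array (log2 minus the 75th percentile of the array), with NC1 on the left and miR-891b on the right of each line; every point is 1 array and each panel spans the same range. The miR-891b point of VPS37B is the lower in both lines, the A549 miR-891b point of VPS36 lies below its other points, the A549 NC1 point of PDCD6IP lies above its other points, and the higher CHMP7 point in A549 rests on the spot with a local background of 76.

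Syntenin, the product of SDCBP, is the adaptor that ties the cytoplasmic tails of syndecans to ALIX. SDCBP gave 3.53 and 3.50 in HCT116 and 4.62 and 4.42 in A549. Its changes were -0.025 and -0.20, and both A549 arrays were above both HCT116 arrays. SDC1, the syndecan of epithelia, gave 4.25 and 4.29 in HCT116 (change 0.048) and 5.39 and 5.33 in A549 (change -0.059, which was 0.14 after quantile normalization). SDC4, a widely made syndecan at focal adhesions, gave 3.70 and 3.48 in HCT116 (change -0.22) and 2.24 and 1.91 in A549 (change -0.33), and its spot on the HCT116 miR-891b array lay in an area of stray signal.

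**Figure D3:**
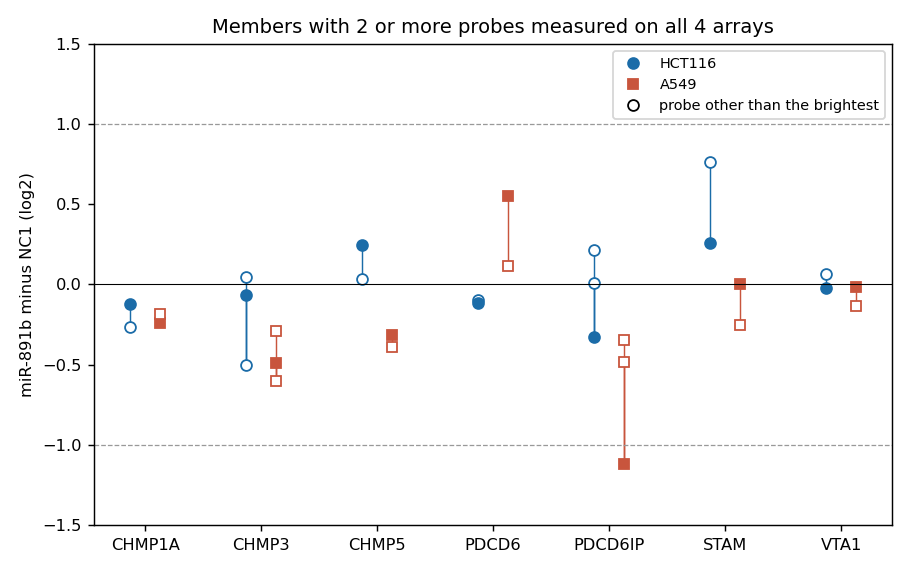
Changes (miR-891b minus NC1, log2) for each probe of the 7 genes with 2 or more probes well above background on all 4 arrays; filled symbols are the brightest probe, which represents the gene, and open symbols the others. The PDCD6IP probes run from -1.12 to -0.34 in A549, and the STAM probes from 0.26 to 0.77 in HCT116.

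Agreement between probes limits what a single probe can show. Over 4899 genes with 2 or more measured probes in A549, the brightest and the next probe differed by a median of 0.23, and by 0.5 or more for 22.7% of genes. In HCT116 the median was 0.18 over 4344 genes. In A549 the brightest probe differed from the next by more than the A549 median for PDCD6IP, PDCD6 and STAM, and by less for CHMP1A, CHMP3, CHMP5 and VTA1.

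The changes were then set side by side across the lines. Among the 30 genes, 25 (83.3%) had the same sign in both lines, against 54.9% of 18061 genes. Some of these agreements rest on a change near 0 in a line. Such were STAM at 0.00028 and VPS4B at 0.014 in A549, and VPS36 at -0.0074 and CHMP1B at 0.014 in HCT116. Another, CHMP7, rests on the A549 spot with a raised local background. Of the further pathway genes described below and measured in both lines, more had opposite signs than the same sign. Across the 30 genes the log2 changes correlated with Pearson's r of 0.61 and Spearman's rho of 0.62, and across all genes with r of 0.135. Genes are not independent replicates, all points share the same 4 arrays, and no p-value is given. Without VPS37B the value for the list was 0.47, and it was 0.48 without probes in areas of stray signal, which leaves out VPS37B as well. The changes were larger in A549, with a median size of 0.31 against 0.15 in HCT116, as they were over all genes (0.32 against 0.20).

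**Figure D4:**
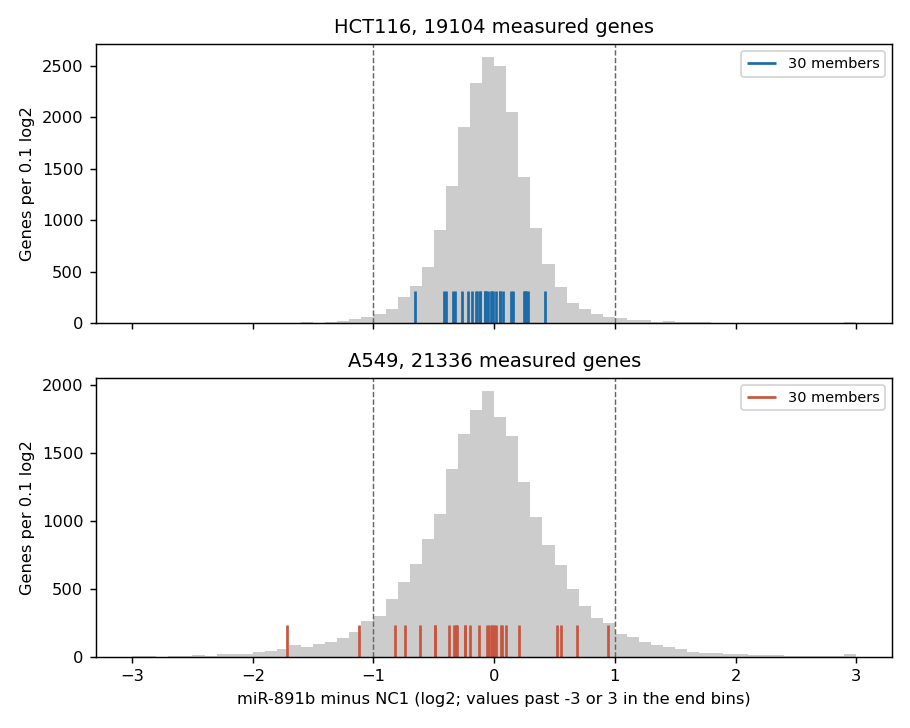
Changes (log2, miR-891b minus NC1) of all measured genes as grey histograms, with the 30 genes as coloured ticks and dashed lines at 2-fold; 19104 genes were measured in HCT116 and 21336 in A549. In HCT116 all 30 ticks lie between -0.65 and 0.42, and in A549 the ticks of VPS37B and PDCD6IP lie past -1.

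The lines are the only replicates of the transfection, and they are different cells whose changes correlated over all genes with r of 0.135. Their residual cannot separate spread between cultures from a difference in response between the 2 lines. A limma fit of both (terms for line and RNA, 1 residual degree of freedom) gave adjusted p under 0.05 (Benjamini-Hochberg) to 0 of the 30 genes and to 0 of 22710 genes (0.0%). At an unadjusted p under 0.05 there was 1 gene of the 30, VPS37B (limma unadjusted p = 0.025, adjusted p = 0.79, mean change -1.19, lower in 2 of 2 lines), against 5.35% of all genes. Other settings gave 0 to 3 genes of the list at this limit, and with no filter on dim probes 6 genes of all, none of the list, passed the adjusted one. CHMP2A (mean change -0.61) and PDCD6IP (-0.72) followed, with limma unadjusted p of 0.070 and 0.072.

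Related subunits did not all change alike in A549. CHMP2A minus CHMP2B was -0.88, CHMP1A minus CHMP1B was -0.93, and CHMP4B minus CHMP4C was -0.89, each with an SE of 0.29 by the error model. VPS37B was below VPS37A and VPS37C by 1.67 and 1.70. By contrast VPS4A minus VPS4B was 0.19. In HCT116 the same differences were -0.55 for the CHMP2 pair, -0.13 for the CHMP1 pair, -0.21 for the CHMP4 pair and -0.34 for the VPS4 pair. There VPS37B was below VPS37A by 0.94 and below VPS37C by 0.58. STAM minus STAM2 was 0.60 in HCT116 and 0.31 in A549, and SDC1 minus SDC4 was 0.27 in each line. Differences of changes were compared here, since levels of different probes cannot be set against each other.

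The control cells of the lines differed by a median size of 0.54 over the 30 genes, against 0.56 over all genes. On the NC1 arrays, 4 of the 30 genes were 2-fold higher in A549 (13.3%, against 11.1% of 19217 genes) and 3 were 2-fold higher in HCT116 (10.0%, against 16.2%). The genes higher in A549 were CHMP2B by 1.21, SDC1 by 1.14, CHMP3 by 1.14 and SDCBP by 1.097. Those higher in HCT116 were VPS37B, with an A549 minus HCT116 difference of -1.55, SDC4 with -1.46 and HGS with -1.21. The syndecans thus lay in opposite directions: SDC1 gave 4.25 in HCT116 and 5.39 in A549, and SDC4 gave 3.70 and 2.24. The STAM genes also did, with -0.89 for STAM and 0.93 for STAM2. The miR-891b arrays gave 1.12 for CHMP2B, 1.04 for SDC1, 0.71 for CHMP3, 0.92 for SDCBP, -2.62 for VPS37B, -1.57 for SDC4 and -1.54 for HGS. All 7 kept their direction on these separate arrays, which were on the same slides. PDCD6IP, higher in A549 by 0.74 with NC1, was at -0.051 with miR-891b. Its other probes gave 0.23 and -0.89 for the NC1 arrays, so its line difference depended on the probe. For the same arrays CHMP1A was at -0.74 by its brightest probe, at -1.34 by its second probe and at -1.04 with the mean over probes. HGS was at -0.96 after quantile normalization and CHMP2B at 0.98 with normexp, each short of 2-fold.

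**Figure D5:**
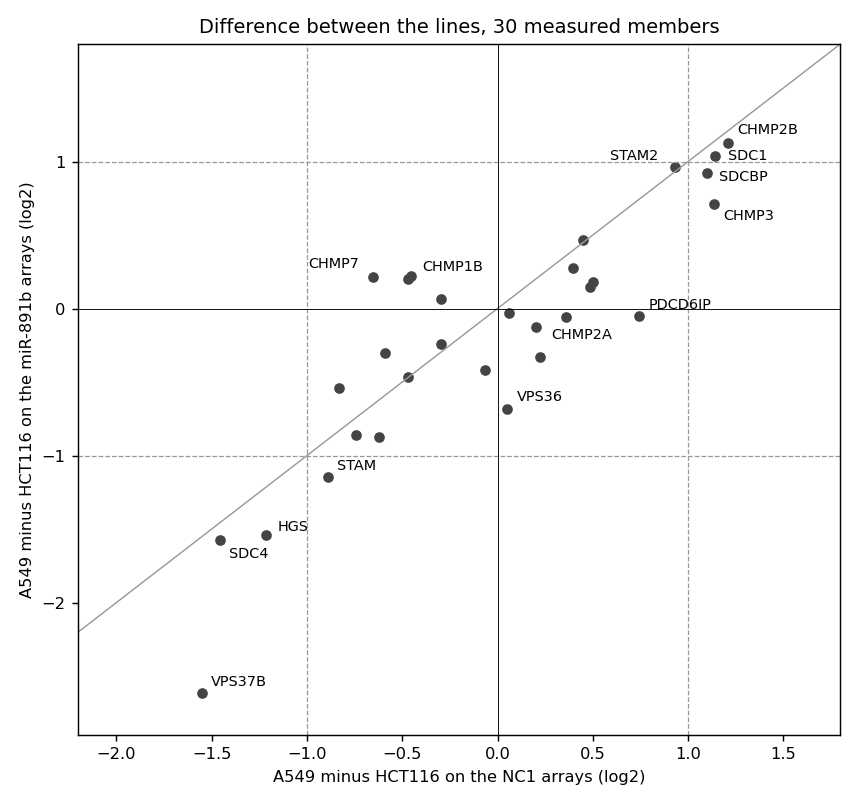
A549 minus HCT116 signal (log2) of the 30 genes on the NC1 arrays (horizontal axis) and on the miR-891b arrays (vertical axis); each point is 1 gene, the grey line marks equality and dashed lines 2-fold. CHMP2B, SDC1, SDCBP and CHMP3 lie at the upper right, HGS, SDC4 and VPS37B at the lower left, and VPS37B lies farthest below the line of equality.

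A further 28 genes of the pathway were listed from general knowledge. In A549, 26 were measured, 3 were 1.5-fold lower and 4 were 1.5-fold higher, against 15.3% and 11.1% of all genes. In HCT116 0 of 28 were past 1.5-fold, against 5.65% lower and 3.91% higher. Stray signal surrounded the MVB12B and CC2D1B spots in HCT116 with miR-891b (15.7% and 16.5% of nearby dim spots) but stayed under 10% around them on the A549 arrays. CEP55, which brings ALIX and TSG101 to the bridge between dividing cells and is itself a gene of dividing cells, changed by -1.71 in A549 and by 0.27 in HCT116. SPAST, the enzyme that cuts microtubules and binds CHMP1B, changed by -1.20 and 0.024. ARF6, the small GTPase that acts with syntenin, changed by -0.95 and 0.058. MVB12B, an ESCRT-I subunit, was higher in A549 by 0.95 (0.69 from another probe), CC2D1B, which binds CHMP4 proteins, by 0.76, CASK, a scaffold that binds syndecan tails, by 0.74, and TOLLIP, a ubiquitin-binding adaptor, by 0.70. Between the control lines NEDD4, a ubiquitin ligase, was higher in A549 by 3.04. SDC3 (-2.98), ARRDC1 (-1.82), MVB12A (-1.33), PLD2 (-1.06) and VPS37D (-1.05) had lower signals in A549 than in HCT116. HPSE, the enzyme that trims heparan sulfate on syndecans, was not well above background in A549 and was at least 20.7-fold higher in HCT116, with the bound set on the A549 NC1 array at the lowest signal that passed the background mark, which exceeded that of the probe itself.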

How the data were processed

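RNA of 4 samples, 1 array per group by the sample titles, was measured. Per the file headers, scans were quantified with Agilent Feature Extraction 11.5.1.1 (also in the submitters' processing notes), which subtracted background and removed spatial trends, with probe coordinates on hg19. Intensity values in the deposited scanner files are linear and not scaled between arrays. The deposited value table is in log2 with its scaling and centring unstated; its values equalled the values computed here to within a median of 0.0069 per array (largest difference 0.11).

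Spots marked as outliers were left out, log2 processed signals were averaged per probe, and each array's 75th percentile over gene probes was taken off. The probe of highest mean signal stood for its gene, and a gene counted as measured if both arrays compared had this probe well above background. The additive model (limma 3.58.1, R 4.3.3) used genes well above background on at least 2 arrays, with Benjamini-Hochberg adjustment over all of them, and was tested on simulated data. Other steps used Python 3.11.15, numpy 2.4.6 and pandas 2.3.3. A spot lay in an area of stray signal where, of the spots up to 10 rows and 10 columns away whose signals were dim elsewhere, at least 10% passed the background mark.

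The genes, lists and rules were chosen with earlier results of these data known. Values on every array were given for genes past 1.5-fold in a line and, in each role, for genes at the ends of the mean change; further pathway genes were named past 1.5-fold in a line or 2-fold between the control lines. Probe positions in exons or untranslated regions, and protein sequences, were not analysed here. Promoters and the microRNA are from RefSeq (GRCh38.p14), which held promoters for 22 of the 31 genes. Alternatives are given in the closing section.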

Additional observations from a re-analysis of the deposited data

Results flagged for a closer look

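CHMP5 changed in opposite directions in the lines, and its A549 change lay below its HCT116 change by a difference of -0.56. Each change exceeded 2 times the SD of repeated spots, which was taken from other probes since CHMP5 has 1 spot per probe. Neither change exceeded 2 times its SE of 0.20 by the error model. The difference was not tested, since each line has 1 array per group, and the second CHMP5 probe gave 0.036 in HCT116 and -0.39 in A549.

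Negative control spots, which match no transcript and enter no comparison, were well above background at 11 of 308 on the HCT116 miR-891b array and at 2 of 308 on the A549 miR-891b array, against 0 on either NC1 array. Of all gene spots on these arrays, 10.5% and 1.83% lay in areas of stray signal, those of VPS37B, CHMP1A, VPS4A and SDC4 on the former and that of CHMP7 on the latter.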

How the results depend on the processing

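The count of genes past 2-fold in HCT116 was 0 in each of the 8 other settings of normalization, value source, probe, filter and stray signal, and 1 at a threshold of 1.5-fold. In A549 the count of 2 became 1 with normexp and quantile normalization (VPS37B), 1 with the mean over probes (VPS37B), 1 without probes in areas of stray signal (PDCD6IP, because the VPS37B probe is removed for its HCT116 spot), 7 at 1.5-fold and 1 at 3-fold, and it was 3 with median scaling, where CHMP7 reached 1.00. Between the control lines the count of 7 was 15 at 1.5-fold and 0 at 3-fold, and ran from 6 to 8 in the other settings. The median change in A549 was -0.0070 with normexp and quantile normalization and -0.0042 with quantile normalization, against -0.16; the cause was not tested. No setting gave a gene of the list an adjusted p under 0.05 (limma), the smallest being 0.40 with no filter on dim probes, where 6 genes of all passed. At an unadjusted p under 0.05 the list had 3 genes with normexp and quantile normalization, 3 among genes well above background on 4 arrays, 0 without probes in areas of stray signal, and 1 in each other setting. VPS37B ran from -1.72 to -1.25 in A549 and from -0.66 to -0.52 in HCT116 over 7 alternatives, and PDCD6IP from -1.12 to -0.65 in A549 over 8. The correlation between the lines, recomputed after it had been seen, ran from 0.48 to 0.61, and 76.7% to 84.6% of the genes had the same sign. The labels give no replicate numbers, and the limma fit pairs the arrays by line. Signals near background limit SDC2, and 1 spot per probe limits every value.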
